A study of Homo sapiens with 6 samples.

Results

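The human genome holds 39 *HOX* genes in the *HOXA*, *HOXB*, *HOXC* and *HOXD* clusters, and all 39 are listed among the 58676 gene identifiers of an RNA-Seq count table from MRC5 lung fibroblasts. They were picked by symbol, as every gene named *HOXA*, *HOXB*, *HOXC* or *HOXD* followed by a number, without regard to their counts. A member was taken as expressed when its counts summed to at least 10 over the 6 libraries, which was also the limit for testing. MRC5 is an established line of human fetal lung fibroblasts, and it was grown in DMEM with fetal bovine serum. The fibroblasts were kept for 24 h in conditioned media (CM) from ATIIER:KRASV12 cells, a human alveolar type II line carrying an inducible RAS construct that 4-hydroxytamoxifen (4-OHT) switches on. For control ATII CM (3 libraries) those cells were left without 4-OHT, and for 4-OHT ATII CM (3 libraries) they had 4-OHT for 24 h before the CM was collected. The comparison asks whether CM of RAS-activated epithelial cells alters gene expression in fibroblasts. Both groups are the same line, and the inducible construct was in the cells that made the CM, not in the fibroblasts. No group had CM with 4-OHT alone, so products of RAS activation and any 4-OHT carried over cannot be told apart. The labels do not say whether the 3 libraries of a group came from separate cultures, so p values measure the spread between these libraries, which may be technical.

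*HOX* genes encode homeodomain transcription factors that assign position along the body axes. Within a cluster they lie in order of their number, low numbers being used early and toward the head and high numbers late and toward the tail and limb tips, and genes with the same number in different clusters are paralogues. Adult and fetal fibroblasts keep a *HOX* pattern that reflects the site they came from. Trithorax proteins such as the methyltransferase KMT2A maintain active *HOX* genes, Polycomb proteins such as the methyltransferase EZH2 keep others silent, and PBX and MEIS proteins bind DNA together with HOX proteins. Retinoic acid, acting through RAR and RXR receptors, induces low-numbered members in the embryo.

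Library totals ranged from 17691849 to 26389449 counts, the smallest being control ATII CM replicate 2, which also differed most from the other libraries of its group. The cells carried fibroblast RNA. All 10 fibroblast markers were tested, and their summed level was 41050 to 44560 CPM (counts scaled to library size) in control ATII CM and 42910 to 44650 CPM in 4-OHT ATII CM. The 6 lung mesenchyme transcription factor genes were all present, with summed levels of 920.6 to 972.1 CPM and 1028 to 1087 CPM. Of 10 epithelial markers, *NKX2-1* and *ESRP1* were at 0 in every library, *CDH1* had 4 counts in all and *SFTPB* and *SFTPC* had 1 each. Their summed level of 91.31 to 97.2 CPM in control and 88.9 to 95.14 CPM in 4-OHT ATII CM lay mostly in the keratins *KRT18* and *KRT8*, and none of the 5 with enough counts was called (4 lower, median log2 fold change -0.12). Of 5 endothelial and immune markers, *PECAM1* and *CDH5* were at 0, *CD68* had 4 counts, *PTPRC* 2 and *VWF* 50. *VWF*, seen in all 6 libraries at 0.2284 to 0.5039 CPM, was the only one tested and did not pass (edgeR adjusted p = 0.836).

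Of the 39 members, 20 were expressed. They were 9 of 11 in *HOXA* (among them *HOXA2* to *HOXA7*, *HOXA9* and *HOXA10*), 7 of 10 in *HOXB* (*HOXB2* to *HOXB8*), 4 of 9 in *HOXC* (*HOXC4*, *HOXC6*, *HOXC8* and *HOXC9*) and 0 of 9 in *HOXD*. Together the 39 genes took 37649 counts, which was 0.0272% to 0.0285% of a library. The *HOXB* cluster held 79.0% of these counts (77.9% to 80.6% by library), *HOXA* 18.8% (17% to 19.9%), *HOXC* 2.24% and *HOXD* 0.0106%, or 4 counts. The 19 members that were not expressed had 9 counts between them.

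The expressed members lay toward the low-numbered side of each cluster that was used. Of the 23 members numbered 1 to 8, 17 were expressed, and the 23 genes together had 99.6% of *HOX* counts. Of the 16 numbered 9 to 13, only *HOXA9*, *HOXA10* and *HOXC9* reached 10 counts, and the 16 genes together had 137 counts, or 0.364%. Members numbered 11 to 13 had 2 counts in all. In *HOXA*, counts were found as far as *HOXA10* and none at its neighbour *HOXA11*. In *HOXB*, where distances are between start codons, *HOXB8* lay 83.8 kb from *HOXB1* and had 294 counts, whereas its neighbour *HOXB9*, at 95.36 kb, had 4. In *HOXC*, *HOXC9* at 53.73 kb from *HOXC4* had 76 counts and *HOXC10* at 68.66 kb had 0. At the low end, *HOXB1* was at 0 in every library and *HOXC5*, which lies between *HOXC4* and *HOXC6*, had 1 count. For some members at or near 0, shared exons limit this reading, because other genes overlap 59.9% of the exon length of *HOXC5*, 58.1% of *HOXD1*, 74.1% of *HOXD3* and 80.5% of *HOXD4*, and how shared reads were counted is not given in the sources used here.

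**Figure D1:**
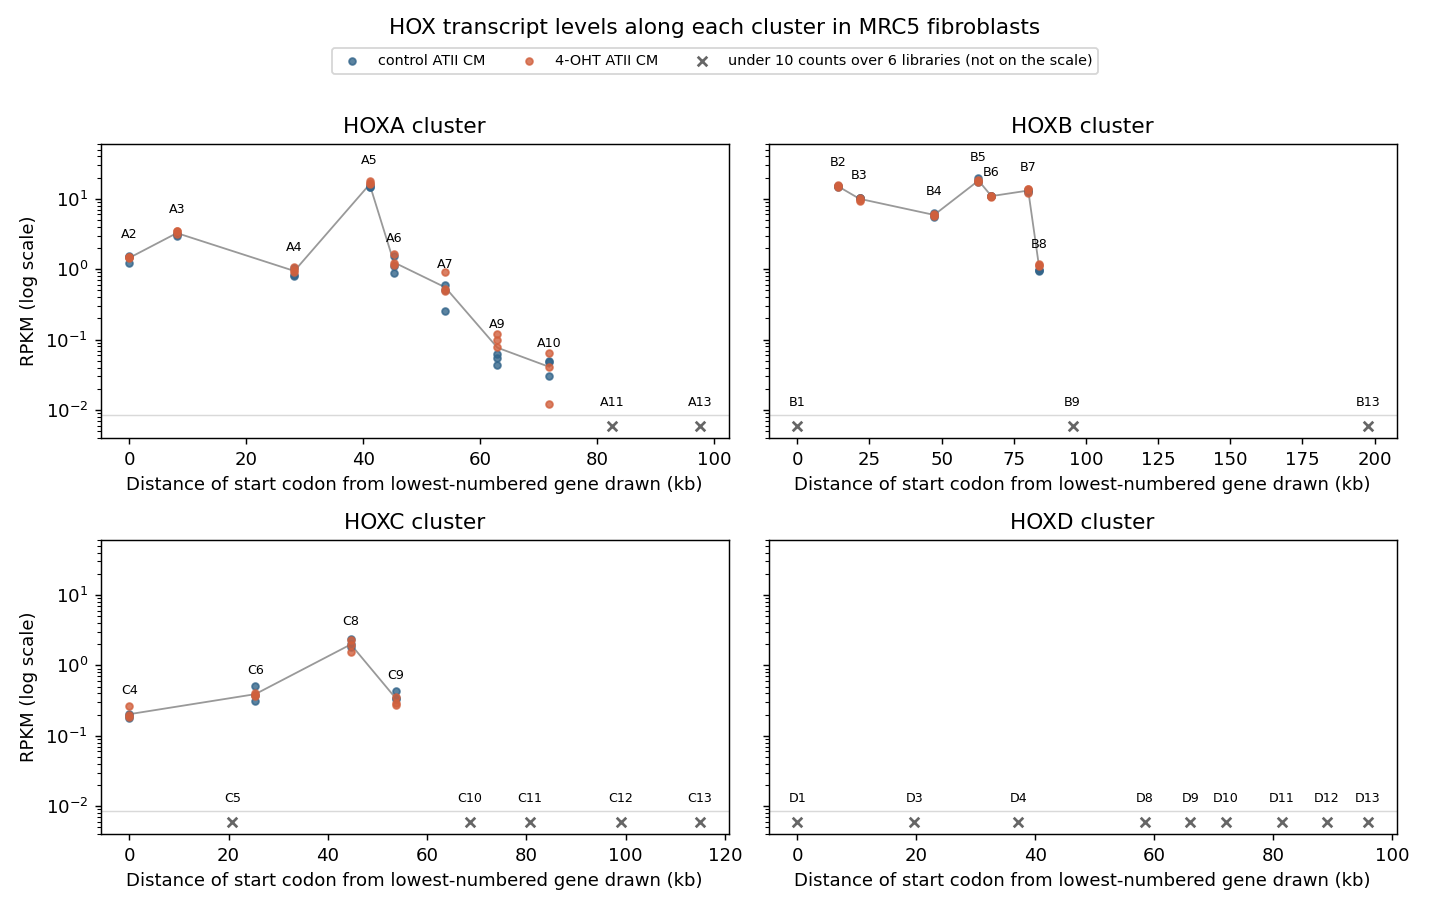
RPKM (log scale) of *HOX* genes in each of 6 libraries, plotted against the distance in kb of the start codon from that of the lowest-numbered gene drawn in the cluster; blue dots are control ATII CM, orange dots 4-OHT ATII CM, grey lines join the means over 6 libraries, and crosses under the line mark the 19 members with fewer than 10 counts. Dots of both groups lie on top of each other for most members, levels drop beyond *HOXA5* and *HOXB7*, and *HOXD* holds crosses only.

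The promoters of 3 *HOXA* members are shown because they lie along the stretch where the counts run out, *HOXA7* with 179 counts, *HOXA9* with 32 and *HOXA11* with 0. They are the 250 bases before the annotated start (RefSeq, GRCh38.p14), all on the minus strand, at chr7:27156676-27156925, chr7:27165538-27165787 and chr7:27185233-27185482, written 5′ to 3′ with CG dinucleotides in capitals.
HOXA7: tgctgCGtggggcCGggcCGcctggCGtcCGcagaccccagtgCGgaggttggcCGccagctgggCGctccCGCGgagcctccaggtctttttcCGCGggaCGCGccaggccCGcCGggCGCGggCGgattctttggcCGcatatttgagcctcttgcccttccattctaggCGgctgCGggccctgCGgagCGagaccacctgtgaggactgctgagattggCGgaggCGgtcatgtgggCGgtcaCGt
HOXA9: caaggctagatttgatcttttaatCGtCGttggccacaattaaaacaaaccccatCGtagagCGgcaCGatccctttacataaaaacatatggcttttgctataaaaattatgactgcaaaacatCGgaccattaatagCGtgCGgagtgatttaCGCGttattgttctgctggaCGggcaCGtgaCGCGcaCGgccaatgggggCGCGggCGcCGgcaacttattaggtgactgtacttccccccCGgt
HOXA11: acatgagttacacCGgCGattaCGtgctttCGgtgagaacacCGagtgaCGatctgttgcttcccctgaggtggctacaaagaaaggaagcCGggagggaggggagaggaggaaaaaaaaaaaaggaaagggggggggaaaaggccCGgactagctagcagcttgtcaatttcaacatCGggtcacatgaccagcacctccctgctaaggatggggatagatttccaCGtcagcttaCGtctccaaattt
The *HOXA7* window holds 28 CG dinucleotides, that of *HOXA9* 20 and that of *HOXA11* 11. Promoters of 20 members were in the table, and *HOXB2* to *HOXB8* and *HOXA5* were not among them, so the windows of expressed members leave out the most abundant ones. Of the 15 windows of expressed members, 7 belong to *HOXA3*, and *HOXC4* and *HOXC5* share 1 window, which counts for both. The 15 windows of 8 expressed members had a median of 19 CG dinucleotides and the 12 windows of 12 members that were not expressed had 21, against 11 over all 35116 windows of the table. The windows ranged from 0 to 40, the highest being that of *HOXA13*, which had no counts.

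Both strands of the windows were searched for 3 short motifs that may overlap each other. The TATA box TATAAA was in 5 of 27 *HOX* windows, namely those of *HOXA9*, *HOXD13*, 1 of 7 of *HOXA3* and both of *HOXA10*, against 10.7% of all windows. A joint PBX and HOX motif, TGATNNAT, was in 3 (*HOXA2*, *HOXB1* and *HOXD11*), against 6.47%. AGGTCA, which nuclear receptors bind, was in 0 of 27, against 12.1%.

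Levels of different genes were compared per kilobase of merged exons, as RPKM. *HOXB5*, known from airway branching, was at 18.17 RPKM on average over 6 libraries, *HOXA5*, which is needed for trachea and lung development in mice, at 16.09, and *HOXB2*, a hindbrain patterning gene, at 15.18. *HOXB7* (13.13 RPKM), *HOXB6* (10.94), *HOXB3* (10.02) and *HOXB4* (5.913) followed, so that 6 of the 7 members above 5.9 RPKM belonged to *HOXB*. The ranges over libraries of *HOXB5* and *HOXA5* overlapped, as did those of *HOXA5* and *HOXB2*, although *HOXB5* was above *HOXA5* in 6 of 6 libraries. From *HOXB2* down to *HOXA2*, each member's range lay apart from that of the next. *HOXA3* was at 3.268 RPKM, *HOXC8* at 1.989 and *HOXA2* at 1.451. From *HOXA2* through *HOXA6* (1.254), *HOXB8* (1.056), *HOXA4* (0.9452), *HOXA7* (0.5531) and *HOXC6* (0.391) to *HOXC9* (0.3392), each member's range overlapped that of the next, so that neighbours in this stretch were not resolved, although members farther apart in it were (*HOXA2* lay wholly above *HOXB8*). *HOXC4* (0.2029), *HOXA9* (0.07693) and *HOXA10* (0.04111) closed the order, and only the last pair overlapped. *HOXB5* stood at the 88.2 percentile of all genes tested, whose median was 1.96 RPKM, whereas the median of the 20 expressed members was 1.35.

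The order depended in part on the length used. With the length of 1 canonical transcript per gene in place of the merged exons, *HOXB3*, a long gene with 13 annotated transcripts, had 22.62 RPKM and moved from rank 6 to rank 1, with *HOXB2* at rank 2 (21.09 RPKM). Ranks under both lengths had a Spearman rho of 0.958 over the 20 genes. By paralogue group, with merged exon lengths, the summed level was highest for number 5 (34.3 RPKM), lower for numbers 2 (16.6), 7 (13.7), 3 (13.3), 6 (12.6) and 4 (7.06), and fell to 3.05 for number 8, 0.416 for number 9 and 0.0411 for number 10. This order also depends on the length, as *HOXB3* alone had 22.62 RPKM with the canonical one. In paralogue groups with both an expressed *HOXA* and an expressed *HOXB* member, the *HOXB* gene had the larger RPKM at numbers 2 to 7.

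Of the members with no more than 4 counts, many are genes of the limb tips, the pelvis and the tail. *HOXA13* and *HOXD13*, which pattern digits, had 0 counts and 1 count, *HOXA11*, needed for the forearm, 0, and *HOXB13*, known from the prostate, and *HOXC13*, known from the hair follicle, 0 each. In all, 14 members were at 0 in every library (*HOXA11*, *HOXA13*, *HOXB1*, *HOXB13*, *HOXC10* to *HOXC13*, *HOXD1*, *HOXD3*, *HOXD4*, *HOXD8*, *HOXD9* and *HOXD12*). A count of 0 over 135093001 counts allows up to 0.0222 CPM (3 counts), a limit that covers counting error only. Nearest to the limit of 10 counts were *HOXB9* with 4 and *HOXD10* with 2 below it, and *HOXA10* with 21, *HOXA9* with 32 and *HOXC4* with 75 above it. With at least 3 counts asked of each library, 19 members remained expressed, without *HOXA10*. With at least 0.5 CPM in each library, 16 remained, without *HOXA9*, *HOXA10*, *HOXC4* and *HOXC9*. Asking for a mean of at least 1 RPKM left 12.

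None of the 20 expressed *HOX* genes was a differentially expressed gene (DEG) between 4-OHT ATII CM and control ATII CM. Of the 19072 genes tested, 5.72% were DEGs (1090 genes, edgeR quasi-likelihood test, Benjamini-Hochberg adjusted p below 0.05). With 20 genes, 0 called is not far from that share. The smallest adjusted p among the members was 0.109. At an unadjusted p below 0.05 there was 1 of 20, *HOXA5*, against 17.3% of all genes, and limma-voom also called 0 of 20 (5.94% of all genes tested). DESeq2 gave an adjusted p for 12 of the 20 and called 0 of those, against 7.96% of all genes with one. Levels were higher in 12 members and lower in 8, with a median log2 fold change of 0.059, beside 49.5% higher and a median of -0.00204 over all genes. In 4 of 20 members (20%) the groups did not overlap, which is near the 22.1% of all genes tested. These were *HOXA3*, *HOXA5*, *HOXA9* and *HOXB8*, each higher in 4-OHT ATII CM, as were 11.7% of all genes. In bulk RNA, fewer cells with a transcript and less of it per cell cannot be told apart.

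**Figure D2:**
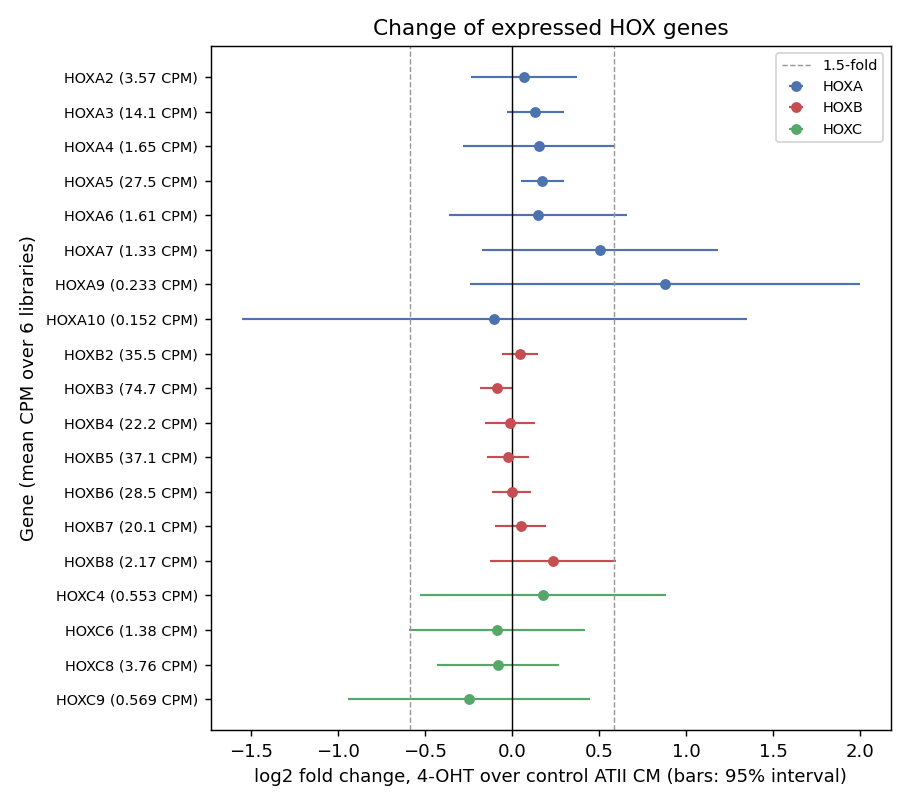
The log2 fold change (x axis, 4-OHT ATII CM over control ATII CM) of expressed *HOX* genes with 95% intervals from edgeR as bars, colored by cluster, with the mean CPM over 6 libraries beside each name and dashed lines at 1.5-fold. Bars are short for the 8 members of at least 10 CPM and reach past 1.5-fold for most of the others, and only that of *HOXA5* leaves 0 outside.

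*HOXA5* (chr7:27141052-27143668, minus strand, 2 exons in its canonical transcript, none shared with another gene) had 25.07, 25.31 and 27.09 CPM in control ATII CM and 27.77, 28.99 and 30.51 CPM in 4-OHT ATII CM. All 3 libraries in 4-OHT ATII CM were above all 3 controls. This was a log2 fold change of 0.17 (SE 0.0581, 95% interval 0.05 to 0.30, n = 3 in each group), with an adjusted p of 0.109 in the edgeR quasi-likelihood test, and adjusted p ranged from 0.0603 to 0.397 over the alternatives. *HOXA3*, a gene of the pharyngeal arches, had 12.65, 13.83 and 13.81 CPM in control and 13.84, 15.04 and 15.26 CPM in 4-OHT ATII CM. The highest control, at 13.83 CPM, nearly reached the lowest library with 4-OHT, at 13.84. With 0.13 on the log2 scale, the difference did not pass (edgeR adjusted p = 0.411). *HOXB8* had 1.921, 2.016 and 2.030 CPM in control and 2.421, 2.326 and 2.283 CPM in 4-OHT ATII CM. The groups stood apart, yet with 294 counts in all the log2 fold change of 0.23 had an interval of -0.13 to 0.60 (edgeR adjusted p = 0.542). *HOXA9*, known from blood stem cells and leukemia, had 4, 3 and 3 counts in control and 8, 6 and 8 counts in 4-OHT ATII CM. Counts were higher in each library with 4-OHT, and the fitted log2 fold change of 0.88 was the greatest of the 20, with an interval of -0.24 to 2.00 (edgeR adjusted p = 0.440).

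The abundant *HOXB* members differed little between the groups. *HOXB3* (chr17:48548870-48604912), which had the most counts of all members, was at 76.79, 77.05 and 77.18 CPM in control and 68.92, 76.99 and 71.15 CPM in 4-OHT ATII CM. Replicates 1 and 3 in 4-OHT ATII CM were below the narrow control range, and replicate 2 was inside it. The log2 fold change was -0.09 (SE 0.0435, 95% interval -0.18 to 0.0035, edgeR adjusted p = 0.311). *HOXB5* had 34.90, 36.96 and 40.29 CPM in control and 35.22, 37.98 and 37.17 CPM in 4-OHT ATII CM, and its 4-OHT range lay inside that of the controls. *HOXB6* had 28.44, 28.72 and 28.42 CPM and 27.63, 28.79 and 28.92 CPM. Its log2 fold change was -0.0027, with an interval of -0.11 to 0.11. *HOXB2*, *HOXB4* and *HOXB7* had log2 fold changes of 0.05, -0.01 and 0.05. For all 8 members with a mean of at least 10 CPM, namely *HOXA3*, *HOXA5* and *HOXB2* to *HOXB7*, the 95% interval stayed within 1.5-fold in either direction, and its half-width was at most 0.163 on the log2 scale. Over all 20 members, 10 intervals stayed within 1.5-fold. The half-width was 0.0926 for the narrowest and 1.45 for the widest.

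Relative spread was wider for members of few counts. Over all 6 libraries, both groups included, the coefficient of variation was 1.62% to 7.68% for the 8 members of at least 10 CPM and 15.7% to 44.1% for the 4 under 1 CPM (*HOXA9*, *HOXA10*, *HOXC4* and *HOXC9*). *HOXA7* had 0.609, 1.456 and 1.236 CPM in control and 2.238, 1.283 and 1.179 CPM in 4-OHT ATII CM. Replicate 1 was the lowest library in the control and the highest in 4-OHT ATII CM, and the other 4 libraries overlapped. This gave a log2 fold change of 0.51 (edgeR adjusted p = 0.469), and it was 0.18 without 4-OHT ATII CM replicate 1. *HOXC8*, which patterns the thoracic skeleton and led its cluster, had 3.467, 4.423 and 3.751 CPM in control and 2.923, 4.331 and 3.652 CPM in 4-OHT ATII CM, and its groups overlapped. Of the other members, *HOXA2*, *HOXA4*, *HOXA6*, *HOXA10*, *HOXC4*, *HOXC6* and *HOXC9*, had log2 fold changes from -0.25 to 0.18, with edgeR adjusted p from 0.778 to 0.963.

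By cluster, 8 of 9 *HOXA* members were higher in 4-OHT ATII CM (median log2 fold change 0.15), against 3 of 7 in *HOXB* (-0.0027) and 1 of 4 in *HOXC* (-0.08). The summed level of *HOXA* was 46.62, 49.27 and 51.14 CPM in control and 53.49, 55.98 and 56.04 CPM in 4-OHT ATII CM, means of 49.01 ± 2.27 and 55.17 ± 1.46 CPM (SD, n = 3). These sums did not overlap between the groups, and *HOXA5* and *HOXA3* made up most of them. The summed level of *HOXB* was 220.7, 221.5 and 223.4 CPM in control and 211.9, 224.5 and 219.1 CPM in 4-OHT ATII CM, and that of *HOXC* 6.372, 7.055 and 5.913 CPM and 5.344, 6.937 and 6.011 CPM. Both overlapped between the groups. All 39 genes together came to 273.7, 278.0 and 280.4 CPM in control and 270.8, 287.4 and 281.2 CPM in 4-OHT ATII CM. The sums were not tested.

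**Figure D3:**
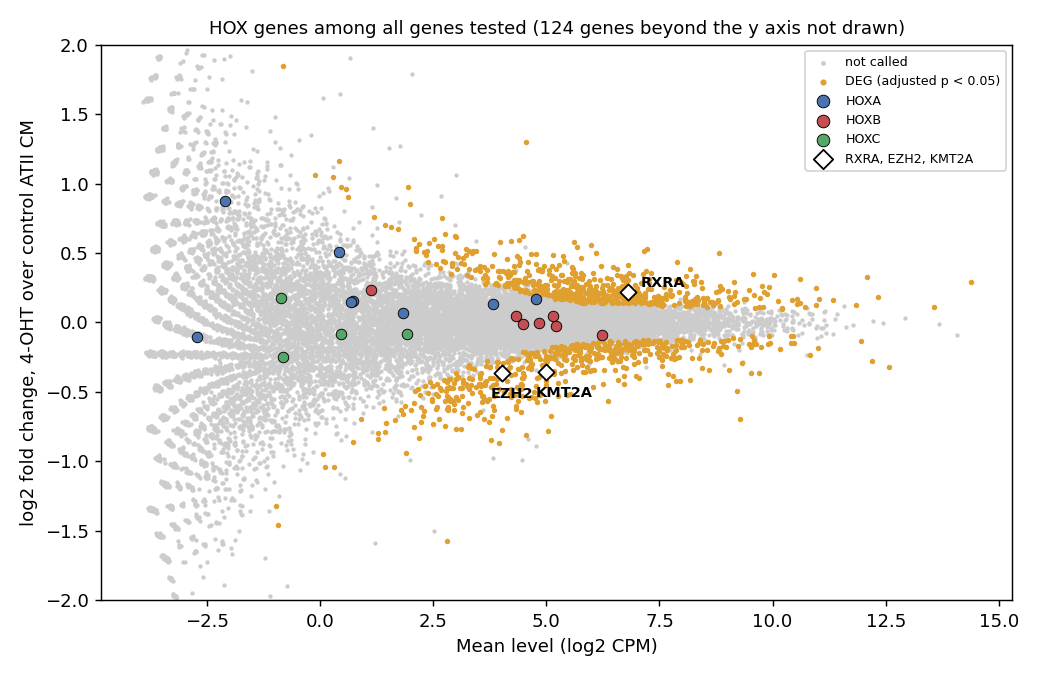
Each dot is 1 of the genes tested, with the mean level in log2 CPM on the x axis and the log2 fold change (4-OHT ATII CM over control ATII CM) on the y axis; orange dots are DEGs, grey dots other genes, large dots expressed *HOX* genes by cluster, and diamonds *RXRA*, *EZH2* and *KMT2A*. The *HOX* dots lie within the grey band at every level, *HOXA5* at its upper edge, whereas the 3 diamonds lie among the DEGs, and 124 genes beyond a log2 fold change of 2 in either direction are not drawn.

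Antisense and noncoding genes of the clusters followed the coding genes in being few. Of 18 such genes, 6 had enough counts for the test (*HOTAIRM1*, *HOXA-AS2*, *HOXA-AS3*, *HOXB-AS1*, *HOXB-AS2* and *HOXB-AS3*), all from *HOXA* and *HOXB*, and 8 were at 0 in every library. Among the latter were *HOTAIR*, of the *HOXC* cluster, and *HOTTIP*, from beyond *HOXA13*. None of the 6 was a DEG in the edgeR test, 1 had an unadjusted p below 0.05, and the median log2 fold change was 0.0542, with 3 higher. That gene, *HOXA-AS2*, had 6.278, 4.535 and 6.310 CPM in control and 7.080, 7.499 and 7.571 CPM in 4-OHT ATII CM, with no overlap. Its log2 fold change was 0.36 (SE 0.125, edgeR adjusted p = 0.121), and it was called only without a filter on low counts (adjusted p = 0.0488). *HOXB-AS3*, the most abundant of them per kilobase, had 17.15, 16.80 and 20.17 CPM and 15.62, 17.08 and 17.04 CPM, with a log2 fold change of -0.12 (edgeR adjusted p = 0.486). The counting is not known to have used strand, so reads of a *HOX* gene and an antisense gene over the same exons cannot be told apart. Such or other shared exon bases made up over 20% of the length of 12 members, among them *HOXA7* (62.5%, with *HOXA-AS3*), *HOXA4* (47.3%), *HOXA6* (40.1%) and *HOXB6* (33.0%), and their values are uncertain to that extent. *HOXA2*, *HOXA5*, *HOXB7*, *HOXB8* and *HOXC8* share none.

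Genes whose products bind DNA with HOX proteins included *MEIS1* and *MEIS3*, and neither passed the test. *MEIS1* had a log2 fold change of 0.08 (edgeR adjusted p = 0.319), and *MEIS3*, the most abundant of 9 such genes per kilobase, 0.08 (0.448). Over the 9 genes, 1 was called higher (11.1%, against 5.72% called among all genes tested). In all, 8 were higher and the median was 0.0764.

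Of 23 Polycomb genes, 21 were tested, 0 rose and 1 fell, in a background of 2.95% of all genes called higher and 2.76% called lower. *EZH2* (chr7:148807383-148884321), the histone H3 lysine 27 methyltransferase, had 17.19, 18.25 and 19.24 CPM in control and 13.75, 13.71 and 14.99 CPM in 4-OHT ATII CM. All 3 libraries in 4-OHT ATII CM were below the controls, and the log2 fold change was -0.36 (SE 0.0739, edgeR adjusted p = 0.00724). It was called in each alternative run. Other subunits of its complex did not pass. The histone-binding *RBBP4* had a log2 fold change of 0.10 (edgeR adjusted p = 0.228), and it was called without control ATII CM replicate 2 (adjusted p = 0.0315). The subunit gene *EED* had a log2 fold change of -0.16 with no overlap between the groups (edgeR adjusted p = 0.2825). *PHC2*, the most abundant of the list per kilobase, had -0.0065 (edgeR adjusted p = 0.953). Of the 21, 13 were higher and the median was 0.0377. *RING1* and *PCGF2*, with 2 counts each, were not tested.

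Of 13 Trithorax and related genes, all were tested, 0 rose and 1 fell. This made 7.69% called, near the 5.72% of all genes tested. *KMT2A* (chr11:118436464-118526832), a histone H3 lysine 4 methyltransferase that maintains *HOX* expression, had 39.96, 28.33 and 38.96 CPM in control and 28.36, 28.91 and 27.01 CPM in 4-OHT ATII CM. Control replicate 2 lay among the libraries with 4-OHT, an overlap of the groups. The fitted log2 fold change was -0.36 (SE 0.0928, edgeR adjusted p = 0.0325). This call rested on the setting: DESeq2 gave an adjusted p of 0.173, and leaving out any 1 library other than control replicate 2 gave 0.0849 to 0.150, whereas without that library the log2 fold change was -0.49 (adjusted p = 7.64e-06). *WDR5*, the most abundant per kilobase and a shared subunit of the methyltransferase complexes, had a log2 fold change of 0.04 (edgeR adjusted p = 0.756). Over the 13 genes, 4 were higher and the median was -0.0328.

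Among 18 genes of the signals that induce *HOX* genes, 14 were tested and 1 rose. That was 7.14% called, near the 5.72% of all genes tested. *RXRA* (chr9:134317098-134440585), the partner receptor of retinoic acid receptors, had 106.0, 106.4 and 99.33 CPM in control and 120.6, 122.1 and 119.8 CPM in 4-OHT ATII CM, with no overlap. *RXRA* rose by 0.22 on the log2 scale (SE 0.0384, edgeR adjusted p = 0.00276), and it was called in each alternative run. *RARG*, the most abundant per kilobase, had 0.03 (edgeR adjusted p = 0.766). Of the 14, 11 were higher and the median was 0.172. *CYP26A1*, a retinoic acid target that degrades it, and the caudal genes *CDX2* and *CDX4* were at 0 in every library. Their relatives on the list, *CYP26B1* (317 counts) and *CDX1* (28 counts), were tested and not called. *CYP26B1* had a log2 fold change of 0.48 with no overlap between the groups (edgeR adjusted p = 0.186).

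**Figure D4:**
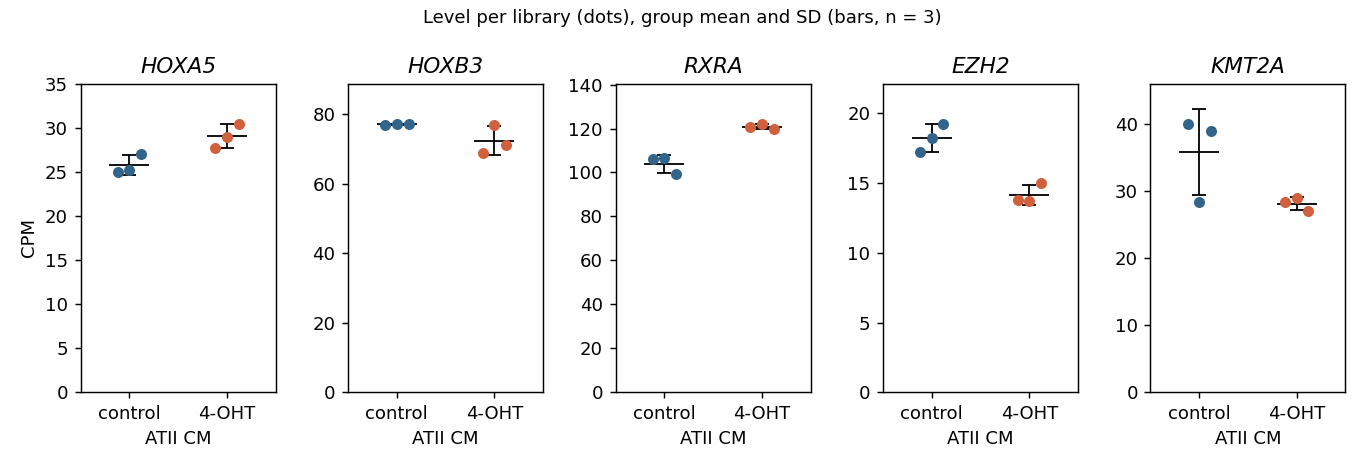
CPM (y axis, from 0) of *HOXA5*, *HOXB3*, *RXRA*, *EZH2* and *KMT2A* in each library, with control ATII CM in blue and 4-OHT ATII CM in orange; dots are libraries, and black bars are the mean and SD (n = 3). The groups stand apart in *RXRA*, *EZH2* and, by a smaller gap, *HOXA5*, whereas 1 control of *KMT2A* lies at 28.33 CPM among the libraries in 4-OHT ATII CM.

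The nearest expressed protein-coding genes on both sides of each cluster served as neighbours outside it. All 8 were tested, and 1 rose (12.5%, against 5.72% called among all genes tested). Levels were higher in 5, with a median log2 fold change of 0.0872. *SKAP2*, an adaptor protein gene 97.8 kb from the *HOXA* cluster, had 39.50, 40.20 and 39.36 CPM in control and 43.62, 47.16 and 47.79 CPM in 4-OHT ATII CM, with no overlap. The log2 fold change was 0.22 (SE 0.0470, edgeR adjusted p = 0.00986), and the call was lost without control replicate 3, 4-OHT replicate 2 or 4-OHT replicate 3 (adjusted p = 0.0530 to 0.0809). *HIBADH*, 325 kb from its other end, had 0.09 (edgeR adjusted p = 0.484). *CALCOCO1*, beyond *HOXC13*, had 0.13 (edgeR adjusted p = 0.0544). It was called with limma-voom (adjusted p = 0.0427), with filterByExpr (0.0473) and without a low-count filter (0.0155). *SNX11* and *TTLL6* beside *HOXB*, *SMUG1* beside *HOXC* and *LNPK* and *MTX2* beside *HOXD* had log2 fold changes from -0.11 to 0.46 and adjusted p of 0.391 or more. *LNPK* and *MTX2* had 6845 and 4285 counts, on both sides of the *HOXD* cluster with its 4 counts.

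Several fibroblast and lung mesenchyme genes were DEGs. Of the 10 fibroblast markers, 4 rose and 1 fell, with a median log2 fold change of 0.041. Among all genes tested, 2.95% were called higher and 2.76% lower. *DCN* (log2 fold change 0.33), *LUM* (0.29), *PDGFRA* (0.22) and *COL3A1* (0.18) rose, and *VIM* fell by 0.10 on the log2 scale, the last only in some settings (edgeR adjusted p = 0.0414, 0.00889 to 0.212 over alternatives). Of the 6 lung mesenchyme genes, 3 rose, namely *TBX3* (0.24, edgeR adjusted p = 0.000556), *FOXF1* (0.15, 0.0154) and *TCF21* (0.17, 0.0158). The calls of *FOXF1* and *TCF21* were each lost when any of 3 libraries was left out (adjusted p up to 0.110 and 0.0994). All 6 had higher levels in 4-OHT ATII CM, as had 49.5% of all genes tested, with a median of 0.16. Their part in the levels of the *HOX* genes was not tested.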

How the data were processed

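RNA-Seq of 6 MRC5 libraries was used, 3 in each group, with groups taken from the sample labels. Per the submitters' processing notes, reads were trimmed (Trim Galore), aligned to GRCh38 (HISAT2 2.1.0) and summarized by gene (featureCounts 1.6.5). The table the authors deposited gives unnormalized counts and each gene's merged exon length, and the strand and shared-exon settings of the counting are not given in the sources used here. The table has 58721 lines for 58676 identifiers, and counts of the 45 with a repeated line were added up. Symbols came from GENCODE. Library totals had a median of 22273931 counts, and variation between replicates beyond counting error was 4.36% (square root of the common dispersion).

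Genes with at least 10 counts over the 6 libraries (19072) entered edgeR 4.0.16 in R 4.3.3 with TMM scaling (quasi-likelihood test, two-sided, group as the only term), with Benjamini-Hochberg adjustment over all of them and a threshold of 0.05. CPM uses TMM library sizes, and RPKM divides it by the merged exon length in kb. Standard errors and 95% intervals came from each gene's fold change and F value. The code was tested on simulated data. Alternatives were DESeq2 1.42.0, limma-voom (limma 3.58.1), RLE and upper quartile scaling, other low-count filters, a replicate block, and leaving out each library.

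The members and gene lists (cofactors, Polycomb, Trithorax, inducers, cluster noncoding genes, flanking genes, and fibroblast, lung mesenchyme, epithelial and endothelial or immune markers) were chosen with earlier results of these data known. Named were all members and flanking genes and, of each list, the genes called (at most 5), the most abundant per kilobase, the smallest p where none was called, and *RBBP4*, *EZH2*, *KMT2A* and *MEIS1*. Results of some genes under this rule are not reported here, and they are not drawn by name, though counts over the members and lists include them. Among endothelial and immune markers, 1 of 5 was tested and 0 were called. *CDH1*, *NKX2-1*, *CD68*, *PTPRC* and other markers near 0, *RING1*, *PCGF2*, *CYP26A1*, *CDX2*, *CDX4*, *HOTAIR* and *HOTTIP* were named after their counts were seen. *CYP26B1*, *CDX1* and *EED* were named after their values were seen. Promoter windows came from a RefSeq table that held 20 of the 39 members.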

Additional observations from a re-analysis of the deposited data

How the results depend on the processing

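No *HOX* gene was called in the 13 alternatives, of which filterByExpr tested 18 of the 20 and DESeq2 gave an adjusted p for 12. In the alternatives that gave them a value, 11 of the 20 kept their direction. The others, none called, changed sign when a library was left out, with log2 fold changes from -0.0238 to 0.120 for *HOXA2*, -0.0244 to 0.390 for *HOXA6*, -0.619 to 0.275 for *HOXA10*, -0.0596 to 0.0439 for *HOXB4*, -0.0746 to 0.0311 for *HOXB5*, -0.0176 to 0.0217 for *HOXB6*, -0.000479 to 0.274 for *HOXC4*, -0.257 to 0.141 for *HOXC6* and -0.227 to 0.0507 for *HOXC8*. So did *PHC2* (-0.0294 to 0.00767), *MTX2* (-0.0485 to 0.0244) and *SNX11* (-0.0892 to 0.00736). Without a low-count filter, *PHC2* (0.00246), *MTX2* (0.000982) and *HOXB6* (0.00626) were also of the other sign. The cause was not tested.

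Leaving out each library gave 533 to 1530 DEGs, the lowest without 4-OHT ATII CM replicate 2 and the highest without control ATII CM replicate 2. It gave 1 to 2 Polycomb, 0 to 3 Trithorax, 1 to 2 inducer and 0 to 1 flanking genes. Trithorax genes called were 0 with DESeq2. Without a low-count filter 1 noncoding, 2 Polycomb, 2 Trithorax and 2 flanking genes were called, *PHF1* among them from 1 library (5.21 CPM in 4-OHT ATII CM replicate 1, at most 1.01 CPM elsewhere). Flanking genes called were also 2 with limma-voom and with filterByExpr. At a mean of at least 1 RPKM, 12 *HOX* genes counted as expressed.

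Same-numbered libraries did not deviate together (correlations of 0.0465, 0.00489 and 0.0228). Whether the numbers mark pairs is not given by the labels, and these correlations cannot settle it. With the replicate block, 985 genes were DEGs, 0 of them *HOX* genes, and *VIM* was no longer called (adjusted p = 0.057). Depth limits the members under 1 CPM.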
